A study of Mus musculus with 9 samples.

Results

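The 10 listed genes of the fibroblast growth factor (FGF) pathway were followed through 9 mouse libraries: the ligands Fgf2, Fgf9, Fgf18 and Fgf1, the receptors Fgfr1, Fgfr2 and Fgfr3, the receptor-binding membrane protein Flrt3, and the feedback inhibitors Spry2 and Spred1. They were chosen by symbol, because the series title names Fgf2, and make up 10 of the 54838 Ensembl identifiers in the count table. All 10 were found and all had counts. The libraries came from laser-captured cells of PFA-fixed frozen tissue, 3 labelled overlap, 3 labelled c-fos and 3 labelled mCHerry. These names are given as the genotype. mCherry is a red fluorescent protein used to mark cells, c-fos is the product of the immediate early gene Fos, which neurons switch on after activity, and overlap is read here as cells with both labels. The design text instead names a CRD label, a His label and their combination, without matching them to mCHerry or c-fos. The series title speaks of basolateral amygdala projections, visceral pain and itch. The sources used here give no strain, age, sex, treatment, number of animals or number of cells per library. No library is tied to an animal, so the p-values reflect the spread among libraries alone, which may be technical.

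FGF ligands are secreted proteins that bind heparan sulphate and the receptor tyrosine kinases FGFR1 to FGFR4. Activated receptors signal through the adaptor FRS2 to the RAS-ERK cascade, and Sprouty and SPRED proteins, induced by the pathway, dampen it. In the brain, Fgf2 and Fgf1 are known growth and survival factors of neurons and glia, Fgf9 is made mainly by neurons, Fgfr1 is the receptor of many neurons, and Fgfr2 and Fgfr3 are more typical of glia, Fgfr3 above all of astrocytes.

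Total counts ran from 90091 in overlap 1 to 429317 in mCHerry 2. A count of 3, used as the floor of detection, corresponds to 33.3 CPM (counts scaled to the library total) in the first and 6.99 CPM in the second. The labels also name spermatocytes, and the protocol a testis biopsy, so markers were summed in each library. The 8 general neuron markers reached 2062 to 3654 CPM and all 8 had counts in every group. The 18 spermatocyte markers reached 108 to 598 CPM, with Sycp1, Spo11 and Pgk2 at 0 throughout. Libraries overlap 1 and mCHerry 3 stood apart by their insulin transcripts, 19650 and 8106 CPM against 247 to 990 CPM in the others, and values without both are set beside the fold changes against mCHerry of the tested FGF genes and of the further genes named with one. Fos itself averaged 351 ± 167 CPM in overlap, 293 ± 35.3 in c-fos and 85.6 ± 60.7 in mCHerry (SD, n = 3 each), with every c-fos and every overlap library above every mCHerry library. Fos names a label, so this describes the groups and is no finding.

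Promoter sequence is shown for the genes on which the results turn. Fgf2 was counted in the c-fos libraries and in no other, and Fgf9, Flrt3 and Spry2 were higher in every c-fos and overlap library than in every mCHerry library. The 250 bases before the RefSeq start site (build GRCm38.p6) are given 5′ to 3′ on the gene's strand. They lie at chr3:37348403-37348652 (plus strand) for Fgf2, chr14:58072436-58072685 (plus strand) for Fgf9, chr2:140671477-140671726 (minus strand) for Flrt3 and chr14:105896820-105897069 (minus strand) for Spry2. Longer RefSeq models of Fgf2 and Fgf9 begin within or before these windows. Capitals mark the core of the cyclic AMP response element (TGACG, either strand) and the GC box bound by Sp1 (GGGCGG, either strand).
Fgf2: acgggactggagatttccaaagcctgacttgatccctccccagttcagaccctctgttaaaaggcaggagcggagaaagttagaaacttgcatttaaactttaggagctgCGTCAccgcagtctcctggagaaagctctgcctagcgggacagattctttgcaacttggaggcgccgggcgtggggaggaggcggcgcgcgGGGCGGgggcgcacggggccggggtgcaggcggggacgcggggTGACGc
Fgf9: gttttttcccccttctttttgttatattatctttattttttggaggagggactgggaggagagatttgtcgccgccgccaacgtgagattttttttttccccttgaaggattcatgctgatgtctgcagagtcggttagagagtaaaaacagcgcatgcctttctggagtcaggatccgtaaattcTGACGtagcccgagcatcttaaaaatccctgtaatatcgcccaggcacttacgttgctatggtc
Flrt3: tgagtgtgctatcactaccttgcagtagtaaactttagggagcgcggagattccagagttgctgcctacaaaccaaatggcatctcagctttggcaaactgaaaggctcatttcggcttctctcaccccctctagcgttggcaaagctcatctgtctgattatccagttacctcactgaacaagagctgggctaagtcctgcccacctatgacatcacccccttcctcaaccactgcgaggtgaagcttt
Spry2: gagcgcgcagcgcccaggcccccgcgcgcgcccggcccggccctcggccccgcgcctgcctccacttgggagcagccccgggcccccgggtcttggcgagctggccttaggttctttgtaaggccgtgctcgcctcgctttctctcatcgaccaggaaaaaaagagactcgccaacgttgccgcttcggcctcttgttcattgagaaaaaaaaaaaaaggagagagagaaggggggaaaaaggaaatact
The Fgf2 window holds a core beginning 140 bases and another beginning 6 bases before the start, and a GC box beginning 49 bases before it. Fgf9 holds a core beginning 64 bases before its start, and the windows of Flrt3 and Spry2 hold neither motif. Among all 32851 promoter windows of this length, 17.8% hold the core and 32.7% the GC box. Both motifs were chosen after the sequences were seen, so these shares are a description. The GC box also lies in windows of Spred1, Fgfr3 and Fgf18. Also sought on both strands were the full cyclic AMP response element (TGACGTCA, which contains the core) and the AP-1 site (TGANTCA). So were the Egr site (GCGTGGGCG), the ETS site (CCGGAAGT) and TATAAA. These occur in none of the windows of the 8 genes read, against 1.55%, 6.75%, 0.536%, 2.88% and 12.4% of all windows, in that order. The windows of Fgf1 and Fgfr1 were not read. GC content was 62.4% for Fgf2, 44.8% for Fgf9, 50% for Flrt3 and 62.4% for Spry2, against a median of 52.4% (quartiles 45.2% and 61.2%) over all windows. The counts come from the 3′ ends of RNAs and do not show which start site was used.

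Fgf2, the ligand of the series title, was counted only in c-fos libraries. It had 0, 0 and 0 counts in overlap 1, 2 and 3, 5, 6 and 22 counts in c-fos 1, 2 and 3, and 0, 0 and 0 counts in mCHerry 1, 2 and 3. Library totals ran from 90091 to 282974 in overlap, 109091 to 304536 in c-fos and 198865 to 429317 in mCHerry, and the part of depth in the pattern was not tested. Summed over the group, the level in c-fos cells was 46.3 CPM from 33 counts (95% exact Poisson interval 31.9 to 65.05). The 0 counts in overlap allow up to 5.01 CPM and those in mCHerry up to 3.38 CPM, taking 3 counts over the group as the limit. Set against these limits, the estimate of 46.3 CPM makes the level at least 9.24-fold lower in overlap than in c-fos cells and at least 13.7-fold higher in c-fos than in mCHerry cells. These bounds use the 46.3 CPM as it stands, without its interval. The exact Poisson 95% upper limits at 0 counts are higher than the 3-count limits, 6.16 CPM in overlap and 4.15 CPM in mCHerry, and would lower both bounds. Of the 33 counts, 22 came from c-fos 3. Without it the level in c-fos was 27.0 CPM from 11 counts, and the bounds became 5.38-fold for overlap and 7.98-fold against mCHerry. Without overlap 2 or overlap 3 the first bound was 5.76-fold or 4.88-fold, and without mCHerry 2 the second was 7.09-fold. Intervals given here cover counting error only. Where a library holds many cells, fewer cells of a type and less RNA per cell cannot be told apart.

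Of the 26012 genes with any count, 107 (0.411%) were counted in every c-fos library and in none of the other 6. For comparison, 25 genes (0.0961%) had such a pattern for overlap and 83 (0.319%) for mCHerry. Fgf2 was the only one of the 10 FGF genes among the 107, and 1 of the 107 had more counts than Fgf2 over the c-fos libraries. Fgf2 did not pass the filter on low counts, so the edgeR fit did not test it. With no filter, edgeR's quasi-likelihood test gave an unadjusted p of 0.017 and a Benjamini-Hochberg adjusted p of 0.577 for c-fos against mCHerry, 0.0211 and 0.702 for overlap against c-fos, and 0.00647 and 0.192 for any difference among the groups. The sources do not say whether the study picked Fgf2 from these libraries, and if it did, the pattern is no independent evidence. The 3′ end of Fgf2 lies opposite that of Nudt6, a hydrolase gene on the other strand. Nudt6 had 2, 0 and 0 counts in overlap, 1, 0 and 8 in c-fos, and 1, 0 and 0 in mCHerry. The sources used here do not state a strand setting, so reads of this pair may not be fully told apart, and in c-fos 3 both genes had their highest count.

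**Figure D1:**
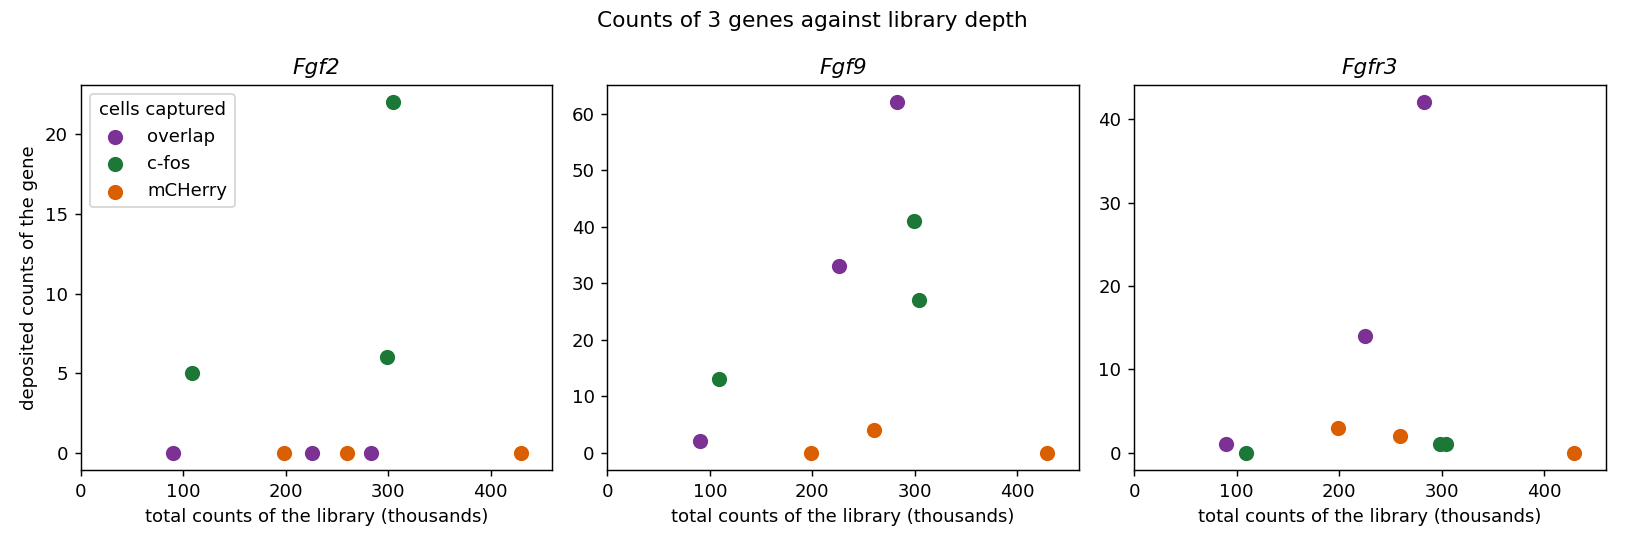
Deposited counts of Fgf2, Fgf9 and Fgfr3 (vertical axis) against the total counts of each of the 9 libraries (horizontal axis), 1 point per library, coloured by group. Fgf2 is above 0 in the 3 c-fos libraries and in no other, Fgf9 is at 0 in 2 mCHerry libraries including the deepest of all, and Fgfr3 is highest in overlap 3 with 42 counts.

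The genes whose levels over the 9 libraries were most like those of Fgf2, by Pearson's r of log2 CPM among the 7959 tested genes, were the predicted gene Gm25517 (0.965), the homeobox factor gene Hesx1 (0.956) and the vomeronasal receptor gene Vmn2r27 (0.952). Gm25517 was counted in all 9 libraries, with 2, 8 and 5 counts in overlap, 9, 20 and 35 in c-fos, and 4, 10 and 3 in mCHerry. Hesx1 had 0, 1 and 0 counts in overlap, 46, 85 and 87 in c-fos, and 0, 0 and 0 in mCHerry. Vmn2r27 had 5, 13 and 12 counts in c-fos libraries and 0 in all overlap and mCHerry libraries. These are the highest of many values and describe these libraries.

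Fgf9, a neuronal ligand, was nearly absent from mCHerry libraries and present in all others. Its counts were 2, 33 and 62 in overlap, 13, 41 and 27 in c-fos, and 4, 0 and 0 in mCHerry. Scaled by library size and composition (TMM), the levels were 21.9, 127 and 219 CPM in overlap, 105, 128 and 84.4 CPM in c-fos, and 15.2, 0 and 0 CPM in mCHerry. Every overlap and every c-fos library was above every mCHerry library, although overlap 1 rests on 2 counts, under the floor. The mean was 123 ± 98.4 CPM for overlap, 106 ± 21.6 CPM for c-fos and 5.06 ± 8.76 CPM for mCHerry (SD, n = 3 each).

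The fitted log2 fold change of Fgf9 was 4.22 ± 1.27 (SE) for c-fos against mCHerry and 4.46 ± 1.27 for overlap against mCHerry. Neither passed the test over all genes in edgeR (adjusted p = 0.568 and 0.202), with unadjusted p of 0.00433 and 0.003. Over alternative settings the adjusted p of Fgf9 ran from 0.0992 to 1 for the first comparison and from 0.02 to 0.335 for the second. The mean of c-fos and overlap against mCHerry gave 4.34 ± 1.21 (adjusted p = 0.167). That comparison passed without mCHerry 1, the 1 mCHerry library with Fgf9 counts (adjusted p = 0.0349 in edgeR), and with no filter on low counts (0.0369). Without mCHerry 1 the fitted values were 7.70 for c-fos, 7.94 for overlap and 7.82 for their mean, all against a group then at 0 counts, so the fold changes above rest on the 4 counts of that library. Without mCHerry 3 and overlap 1 they were 3.89 ± 1.09, 4.59 ± 1.13 and 4.24 ± 1.06. DESeq2 called Fgf9 for overlap against mCHerry (adjusted p = 0.02) and for the mean of c-fos and overlap against mCHerry (0.022). In the first of these DESeq2 called 188 of all 7959 tested genes, where edgeR called 2. Between overlap and c-fos cells Fgf9 stood at 0.24 ± 1.03 with overlapping libraries, and without overlap 3 at -0.46. Fgf9 passed the filter on low counts through the groups in which it is high, so its difference is not independent of that filter.

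Among the tested genes, Selplg, Olfr1170 and Cubn had levels most like those of Fgf9 over the 9 libraries (Pearson's r 0.949, 0.941 and 0.941). These values too are the highest of 7958 and describe these libraries.

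Fgf18, a ligand of the Fgf8 subfamily, was highest in overlap cells. Its counts were 13, 20 and 53 in overlap, 9, 10 and 17 in c-fos, and 6, 15 and 1 in mCHerry, so that it was counted in all 9 libraries. Scaled levels reached 143, 76.9 and 187 CPM in overlap, 73, 31.1 and 53.1 CPM in c-fos, and 22.8, 33.6 and 7.91 CPM in mCHerry. Every overlap library was above every other library, while c-fos and mCHerry libraries overlapped. The gap between the lowest overlap and the highest c-fos library was small, 76.9 against 73 CPM. The mean level of overlap was 135 ± 55.4 CPM, that of c-fos 52.4 ± 20.9 CPM and that of mCHerry 21.4 ± 12.9 CPM (SD, n = 3 each).

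The log2 fold change of Fgf18 was 2.56 ± 0.93 for overlap against mCHerry (edgeR adjusted p = 0.269, unadjusted 0.0144). It was 1.38 ± 0.89 for overlap against c-fos (adjusted p = 0.958) and 1.17 ± 0.91 for c-fos against mCHerry (adjusted p = 0.867). DESeq2 called the overlap against mCHerry difference at an adjusted p of 0.0394, and without mCHerry 3 and overlap 1 together edgeR gave 2.14 ± 1.07 (adjusted p = 0.455). Without those libraries Fgf18 stood at 1.35 ± 0.93 for overlap against c-fos and 0.79 ± 0.99 for c-fos against mCHerry. Fgf1, an acidic ligand that acts on all FGF receptors, was at the limit of detection, with 0, 3 and 0 counts in overlap, 2, 1 and 0 in c-fos and 0, 0 and 0 in mCHerry. It did not pass the filter on low counts. Without the filter, edgeR gave an adjusted p of 0.588 for overlap against mCHerry (unadjusted 0.19), 0.672 for c-fos against mCHerry (0.155) and 1 for overlap against c-fos (0.861).

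**Figure D2:**
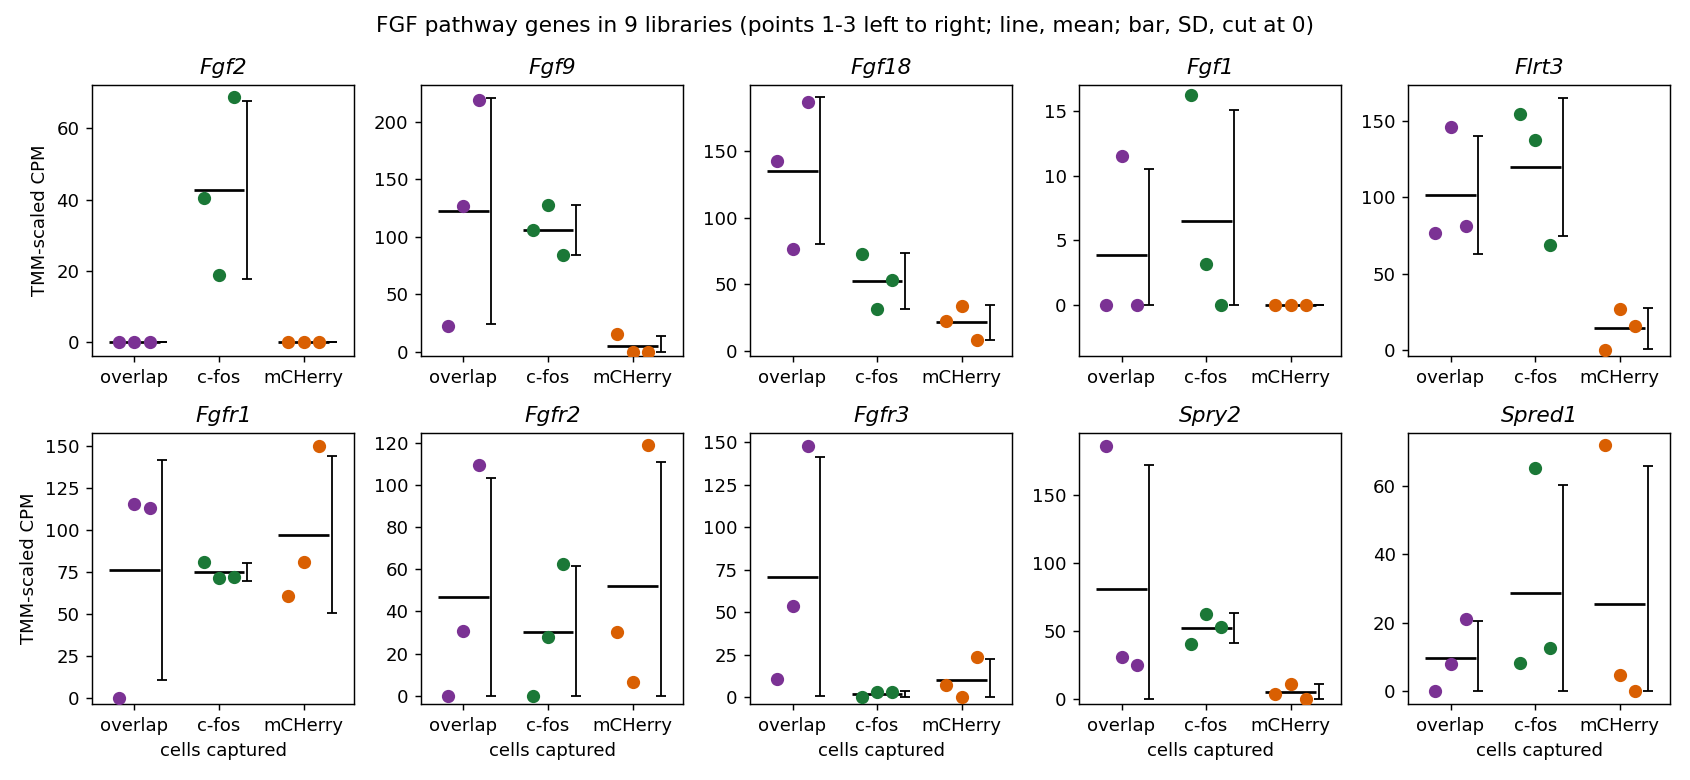
TMM-scaled CPM (vertical axes, linear, each panel with its own scale) of the 10 genes in overlap, c-fos and mCHerry libraries, with 1 point per library, the group mean as a line and the SD (n = 3) as a bar that is cut at 0. Fgf2 lies above 0 in c-fos libraries alone, Fgf9, Flrt3 and Spry2 are lowest in mCHerry, Fgf18 and Fgfr3 have their highest values in overlap, and the groups overlap for Fgfr1, Fgfr2 and Spred1.

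Of the receptors, Fgfr1 was counted in 8 of 9 libraries and its groups overlapped. It had 0, 30 and 32 counts in overlap, 10, 23 and 23 in c-fos, and 16, 36 and 19 in mCHerry. The levels were 0, 115 and 113 CPM in overlap, 81.1, 71.6 and 71.9 CPM in c-fos, and 60.7, 80.8 and 150 CPM in mCHerry. The c-fos libraries were close to each other, with an SD of 5.39 CPM around 74.9. Overlap 1 was at 0, and mCHerry 3, the other library with many insulin transcripts, was the highest after scaling. Its TMM factor was 0.636, against 1.002 to 1.153 in the others, which raises all its scaled levels, those of Fgfr2, Ncam1 and Sos2 below included. Fgfr1 had 19 of 198865 counts there and 30 of 225621 in overlap 2, so that rank rests on the factor. The log2 fold changes were -0.36 ± 0.97 for c-fos against mCHerry, -0.28 ± 0.97 for overlap against mCHerry and 0.08 ± 0.97 for overlap against c-fos, with edgeR adjusted p of 0.99, 0.932 and 0.996. The first 2 turned to 0.023 ± 0.80 and 0.63 ± 0.86 without mCHerry 3 and overlap 1, and to 0.023 and 0.52 under scaling by the 200 genes of highest count, so they carry no direction. Standard errors near 1 on the log2 scale leave room for differences of several fold.

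Fgfr2, the second receptor, varied within every group. It had 0, 8 and 31 counts in overlap, 0, 9 and 20 in c-fos, and 8, 3 and 15 in mCHerry. Scaled levels were 0, 30.7 and 109 CPM in overlap, 0, 28 and 62.5 CPM in c-fos, and 30.4, 6.73 and 119 CPM in mCHerry. All groups overlapped, and log2 fold changes were -0.65 ± 1.44 for c-fos against mCHerry, -0.03 ± 1.498 for overlap against mCHerry and 0.62 ± 1.42 for overlap against c-fos (edgeR adjusted p = 0.984, 0.998 and 0.987). The first 2 changed sign without mCHerry 3 and overlap 1, to 0.76 ± 1.49 and 1.88 ± 1.62, so no direction can be given.

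Fgfr3, the receptor typical of astrocytes, was counted mostly in overlap libraries. It had 1, 14 and 42 counts in overlap, 0, 1 and 1 in c-fos, and 2, 0 and 3 in mCHerry. The levels were 11, 53.8 and 148 CPM in overlap, 0, 3.11 and 3.13 CPM in c-fos, and 7.59, 0 and 23.7 CPM in mCHerry. Overlap 2 and 3 were above all other libraries, and overlap 1, with a single count, lay among the mCHerry libraries. Fgfr3 did not pass the filter on low counts. By summed counts, its level was 95.2 CPM in overlap from 57 counts, 2.81 CPM in c-fos from 2 counts and 5.63 CPM in mCHerry from 5 counts. The ratio of overlap to c-fos was 33.9 (95% exact binomial interval 8.97 to 287) and that of overlap to mCHerry 16.9 (6.84 to 54.1). Of the 57 overlap counts, 42 came from overlap 3. Without it the overlap level was 47.5 CPM, and the ratios were 16.9 (3.94 to 152.5) to c-fos and 8.44 (2.92 to 29.7) to mCHerry. The ratio to mCHerry was 8.74 without mCHerry 2 and 32.8 without mCHerry 3. Without the filter, edgeR gave an unadjusted p of 0.0191 and an adjusted p of 0.702 for overlap against c-fos, and 0.113 and 0.55 for overlap against mCHerry, where the spread between libraries counts as well.

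Astrocyte markers were set beside Fgfr3 in each library. All 10 markers of the list had counts, 9 of them in overlap, 10 in c-fos and 9 in mCHerry, and none of the 10 was at 0 throughout. Their summed level was 755, 895 and 1304 CPM in overlap 1, 2 and 3, 908, 1305 and 1402 CPM in c-fos, and 923, 1260 and 684 CPM in mCHerry. Among overlap libraries, Fgfr3 was highest where the marker sum was highest. The marker sums of the groups overlapped, and the part of astrocyte RNA in the Fgfr3 values was not tested.

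**Figure D3:**
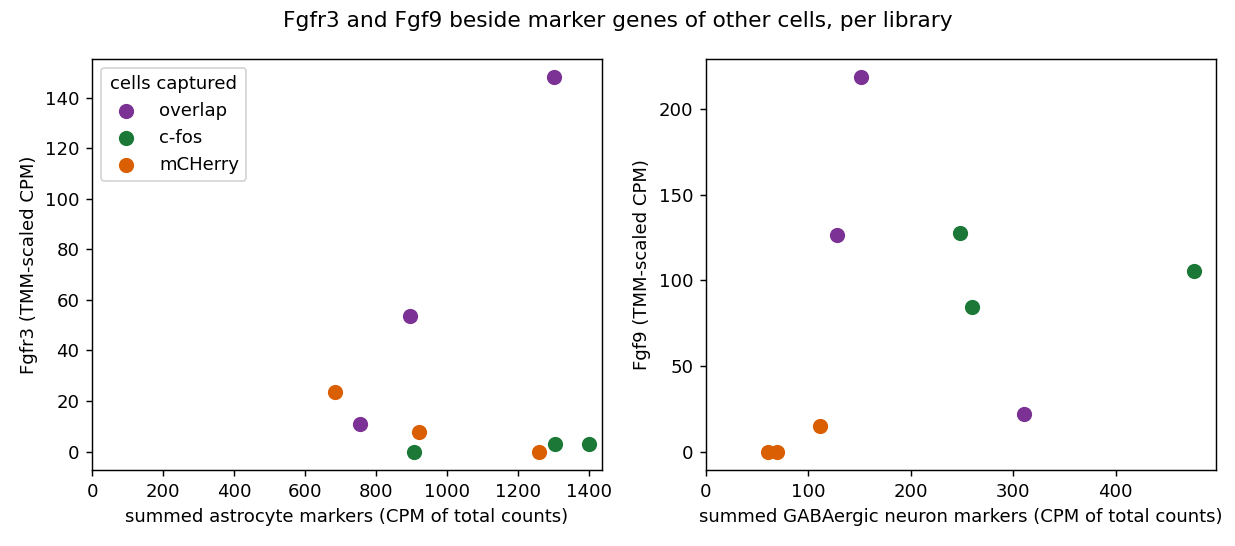
Fgfr3 against the summed level of 10 astrocyte markers (left) and Fgf9 against the summed level of 12 markers of GABAergic neurons (right), per library, in TMM-scaled CPM (vertical axes) and CPM of total counts (horizontal axes). Overlap 3 and c-fos 2, with astrocyte sums of 1304 and 1305 CPM, have Fgfr3 levels of 148 and 3.11 CPM. The 3 mCHerry libraries have the lowest GABAergic sums and the lowest Fgf9 levels. Among overlap libraries the order differs: overlap 1 has the highest GABAergic sum, 311 CPM, and the lowest Fgf9 level, 21.9 CPM.

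Flrt3, a membrane protein that binds FGF receptors and promotes their signalling, and also an adhesion ligand of latrophilins and Unc5 receptors, had higher values in both overlap and c-fos libraries than in mCHerry. It had 7, 38 and 23 counts in overlap, 19, 44 and 22 in c-fos, and 0, 12 and 2 in mCHerry. The levels were 76.8, 146 and 81.1 CPM in overlap, 154, 137 and 68.8 CPM in c-fos, and 0, 26.9 and 15.8 CPM in mCHerry. The lowest of the overlap and c-fos libraries, c-fos 3, was above the highest mCHerry library. The log2 fold change was 2.98 ± 1.05 for c-fos against mCHerry (edgeR adjusted p = 0.568, unadjusted 0.012), 2.76 ± 1.05 for overlap against mCHerry (adjusted p = 0.278, unadjusted 0.0181) and -0.22 ± 0.95 for overlap against c-fos (adjusted p = 0.993), the last turning to 0.10 under that scaling. DESeq2 called Flrt3 for the mean of c-fos and overlap against mCHerry, at an adjusted p of 0.0477. Without mCHerry 3 and overlap 1 the first 2 values were 2.94 ± 1.05 and 2.87 ± 1.09. Flrt3 lies inside Macrod2, which is transcribed from the other strand, and Macrod2 had 0, 22 and 14 counts in overlap, 15, 38 and 53 in c-fos, and 36, 35 and 4 in mCHerry. The Macrod2 groups overlapped. Macrod2 covers the 3′ end of Flrt3 and no strand setting is stated, so reads of this pair may not be fully told apart. The part of Macrod2 reads in the Flrt3 values was not tested.

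Spry2, a Sprouty protein induced by receptor tyrosine kinase signalling and an inhibitor of the RAS-ERK cascade, had 17, 8 and 7 counts in overlap, 5, 20 and 17 in c-fos, and 1, 5 and 0 in mCHerry. The levels were 186, 30.7 and 24.7 CPM in overlap, 40.5, 62.3 and 53.1 CPM in c-fos, and 3.79, 11.2 and 0 CPM in mCHerry. Every overlap and c-fos library was above every mCHerry library, and overlap 1, the shallowest library, was far above the rest. The log2 fold change was 3.04 ± 1.30 for c-fos against mCHerry (edgeR adjusted p = 0.573, unadjusted 0.0328) and 3.60 ± 1.33 for overlap against mCHerry (adjusted p = 0.27, unadjusted 0.0157). Without mCHerry 3 and overlap 1 the 2 values were 2.64 ± 1.63 and 1.73 ± 1.68. Between overlap and c-fos it was 0.56 ± 1.17 (adjusted p = 0.987), and -0.91 ± 1.49 without those libraries, so no direction can be given there.

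Spred1, the other inhibitor, which brings neurofibromin to RAS, had 0, 2 and 6 counts in overlap, 1, 21 and 4 in c-fos, and 19, 2 and 0 in mCHerry. A single library held most counts of the c-fos group and another most of the mCHerry group, and all groups overlapped. Spred1 did not pass the filter on low counts. Its summed level was 13.4 CPM in overlap, 36.5 in c-fos and 23.6 in mCHerry. The ratio of overlap to c-fos, 0.366, had an exact binomial interval of 0.143 to 0.833 by counting error, while edgeR with no filter gave an adjusted p of 0.789 and an unadjusted p of 0.427. The ratio was 1.105 without c-fos 2 and 0.174 without overlap 3.

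**Figure D4:**
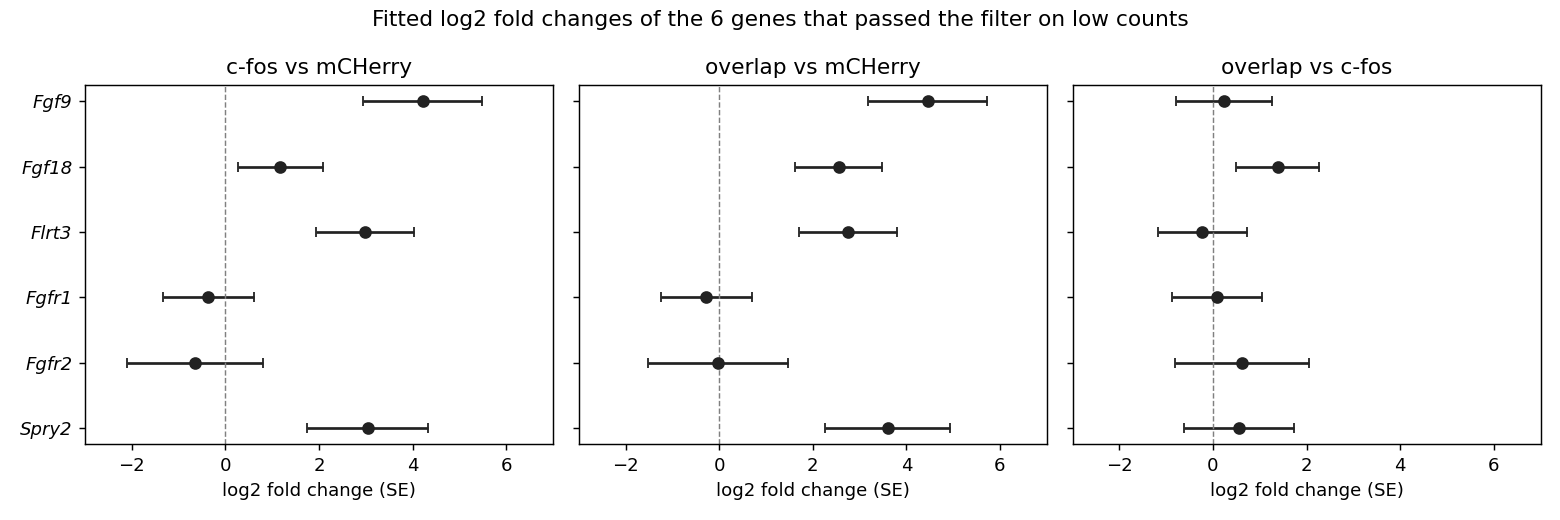
Log2 fold changes (points, horizontal axes) with standard errors (bars) of the 6 tested FGF genes for c-fos against mCHerry, overlap against mCHerry and overlap against c-fos, from 1 edgeR fit of the 9 libraries. Fgf9, Flrt3 and Spry2 lie between 2.76 and 4.46 in both comparisons with mCHerry, and in overlap against c-fos Fgf18 has the highest value, 1.38.

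In all, 6 of the 10 genes passed the filter on low counts and 0 passed the edgeR test in any comparison. Over all 7959 tested genes 0% were called for c-fos against mCHerry, 0.0251% for overlap against mCHerry and 0% for overlap against c-fos. For the mean of c-fos and overlap against mCHerry it was 0%, and for any group difference 0.0377%. At an unadjusted p under 0.05, Fgf9, Flrt3 and Spry2 had higher values and 0 had lower values in c-fos than in mCHerry cells, where 3.3% of all tested genes were higher and 4.66% lower. These 3 and Fgf18 had higher values in overlap than in mCHerry cells and 0 had lower ones, where 6.32% of all tested genes were higher and 7.71% lower. The same 4 passed that threshold for the mean of c-fos and overlap against mCHerry (4.71% higher and 8.32% lower over all genes) and for any group difference (10.3%). Between overlap and c-fos 0 of the 6 did, against 2.2% higher and 2.91% lower. Every library was higher for Fgf9, Flrt3 and Spry2 in c-fos against mCHerry (9.03% of all tested genes, with 6.87% lower), for those and Fgf18 in overlap against mCHerry (6.38%, with 11% lower), and for Fgf18 in overlap against c-fos (4.01%, with 8.57% lower). Fgf9, Flrt3 and Spry2 were also higher in all 6 overlap and c-fos libraries than in all mCHerry libraries, as were 2.1% of tested genes, with 3.27% lower in all 6. Log2 fold changes were positive for 4 of the 6 in each comparison with mCHerry, the mean of c-fos and overlap included. Over all tested genes the positive shares were 49.6% for c-fos, 48.7% for overlap and 47.6% for that mean. In overlap against c-fos 5 of the 6 were positive, where 50.8% of all tested genes were. The comparisons with mCHerry share the mCHerry libraries, and genes that are low in mCHerry passed the filter through the other groups, so these counts are a description. limma-voom called 0 of the 6 in any comparison. DESeq2 called 0 for c-fos against mCHerry, 2 for overlap against mCHerry and 0 for overlap against c-fos. Over all 7959 tested genes it called 3 in the first of these and 188 in the second, where edgeR called 0 and 2.

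The summed level of GABAergic neuron markers, like the levels of Fgf9, Flrt3 and Spry2, was lowest in the mCHerry libraries. Of the 12 markers, 9 had counts, 5 of them in overlap, 8 in c-fos and 9 in mCHerry, and Dlx5, Npy and Vip were at 0. Their sum ran from 129 to 311 CPM for overlap, 248 to 477 CPM for c-fos and 60.3 to 112 CPM for mCHerry. Among overlap libraries, overlap 1 had the highest sum. It had the lowest Fgf9 and Flrt3 levels of that group, 21.9 and 76.8 CPM, and the highest Spry2 level, 186 CPM. Single markers differed from the sum: Dlx6 was counted in mCHerry alone, with 10, 3 and 7 counts, and Gad2, Dlx2 and Lhx6 were at 0 in overlap but not in c-fos or mCHerry. Of the 10 glutamatergic markers, 9 had counts, 9 of them in overlap, 9 in c-fos and 8 in mCHerry, and Slc17a8 was at 0. Their sum was 921, 1241 and 1389 CPM in overlap 1, 2 and 3, 1228, 1720 and 1625 CPM in c-fos, and 2243, 2604 and 1368 CPM in mCHerry, so that mCHerry 1 and 2 were the highest. The 16 endothelial and mural markers summed to 421 to 501 CPM for overlap, 431 to 952 CPM for c-fos and 216 to 554 CPM for mCHerry, with overlapping groups. The part of these cells in the FGF values was not tested.

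The rest of the pathway was read from 4 further lists. Of 18 other FGF ligands, 10 had counts and 1 was tested, Fgf11, an intracellular family member that does not act through FGF receptors, at -1.90 ± 1.75 for c-fos against mCHerry and -0.52 ± 1.68 for overlap against mCHerry. Without mCHerry 3 and overlap 1 the first was -2.21 ± 1.78, and Fgf11 was then at 0 counts in overlap. Of 23 other receptors, co-receptors and heparan sulphate genes, 22 were in the table, 20 had counts and 9 were tested. For c-fos against mCHerry 7 were positive and 2 negative with a median of 0.34, and for overlap against mCHerry 6 were positive and 3 negative with a median of 0.73, where all tested genes had medians of -0.01 and -0.05 and 49.6% and 48.7% were positive. Without mCHerry 3 and overlap 1, 11 genes of the list were tested. For overlap against mCHerry 5 were then positive and 6 negative with a median of -0.31, where all genes had 0.058. The values for c-fos against mCHerry were 6 and 5 with a median of 0.23, where all genes had 0.02. Ncam1, an adhesion molecule that can bind FGF receptors, had its 3 lowest levels in the 3 overlap libraries. Every overlap library was below every mCHerry library for 11% of all tested genes, and below every c-fos library for 8.57%. The group means were 104 ± 27 CPM for overlap, 258 ± 48.8 CPM for c-fos and 551 ± 395 CPM for mCHerry (SD, n = 3 each), with a log2 fold change of -2.37 ± 0.61 for overlap against mCHerry (edgeR adjusted p = 0.172). The highest library was mCHerry 3 at 997 CPM, and without it and overlap 1 the value was -1.51 ± 0.53 (adjusted p = 0.307). Gpc1, a heparan sulphate proteoglycan, had 18.7 ± 19.2 CPM in overlap and 117 ± 57.2 in mCHerry (-2.46 ± 1.06, adjusted p = 0.32), and without both libraries the value was -1.62 ± 1.18. L1cam and Hs6st1 stood at 1.51 ± 0.95 and 1.51 ± 1.15 in the same comparison, with adjusted p of 0.508 and 0.587, and at -0.31 ± 0.92 and -0.73 ± 1.38 without both libraries, so they carry no direction.

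The 30 intracellular signalling genes all had counts and 19 were tested. For c-fos against mCHerry 7 were positive and 12 negative with a median of -0.11, for overlap against mCHerry 8 and 11 with a median of -0.16, and for overlap against c-fos 11 and 8 with a median of 0.03. The 4 with the smallest p for any group difference were Sos2, Stat3, Braf and Map2k1, with edgeR adjusted p from 0.597 to 0.744. Stat3, a transcription factor, was higher in every overlap library than in every other, at 211 ± 68 CPM in overlap, 93 ± 48.7 in c-fos and 81.5 ± 44.9 in mCHerry. Every overlap library was above every mCHerry library for 6.38% of all tested genes, and above every c-fos library for 4.01%. The 2 Stat3 differences had edgeR adjusted p of 0.47 and 0.958. Sos2, which loads RAS with GTP, had 1084 CPM in mCHerry 3 against 20.2 and 49.3 CPM in the other mCHerry libraries. Frs2, the adaptor itself, had 0, 10 and 7 counts in c-fos libraries and 0 in the others.

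Of 25 other feedback and ERK target genes, 24 were in the table, 22 had counts and 11 were tested. For both comparisons with mCHerry 7 were positive and 4 negative, with medians of 0.49 for c-fos and 0.70 for overlap. For overlap against c-fos 4 were positive and 7 negative with a median of -0.27. Over all tested genes 49.6%, 48.7% and 50.8% were positive, with medians of -0.01, -0.05 and 0.03, in that order. This list holds Fos and Egr1, which neuronal activity induces by other routes as well. Fos names a label, so its 1.755 for c-fos and 2.01 for overlap against mCHerry describe the groups. The counts and medians of this list, here and without mCHerry 3 and overlap 1, include both genes and are a description. Egr1 had 253 ± 101 CPM in overlap, 492 ± 158 in c-fos and 85.5 ± 6.41 in mCHerry, with 2.52 ± 0.58 for c-fos against mCHerry and 1.57 ± 0.57 for overlap against mCHerry (edgeR adjusted p = 0.568 and 0.269), or 2.50 ± 0.49 and 1.79 ± 0.50 without mCHerry 3 and overlap 1. Nf1, the neurofibromin that Spred1 recruits, had 81.8 ± 42.4 CPM in overlap, 102 ± 67.6 in c-fos and 348 ± 269 in mCHerry, with overlapping groups. Sulf2, a heparan sulphate sulphatase, had 0, 10 and 16 counts in overlap, 6, 6 and 1 in c-fos, and 0, 1 and 0 in mCHerry. Dusp6, an ERK phosphatase and common readout of FGF signalling, had 9, 9 and 1 counts in overlap, 0, 6 and 6 in c-fos, and 0 in all mCHerry libraries. Etv5, another such target, had 0, 0 and 29 counts in overlap, 1, 0 and 1 in c-fos, and 0 in mCHerry. The median of the feedback list, without mCHerry 3 and overlap 1, was 0.099 for c-fos against mCHerry, with 7 genes positive and 5 negative. For overlap against mCHerry it was 0.89, with 8 positive and 4 negative, and for overlap against c-fos -0.11. The signalling list then had medians of -0.26 for c-fos and -0.03 for overlap against mCHerry. For overlap against c-fos its median was 0.47, with 14 genes positive and 6 negative. In none of the 4 lists did a gene pass the edgeR test in any comparison.

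**Figure D5:**
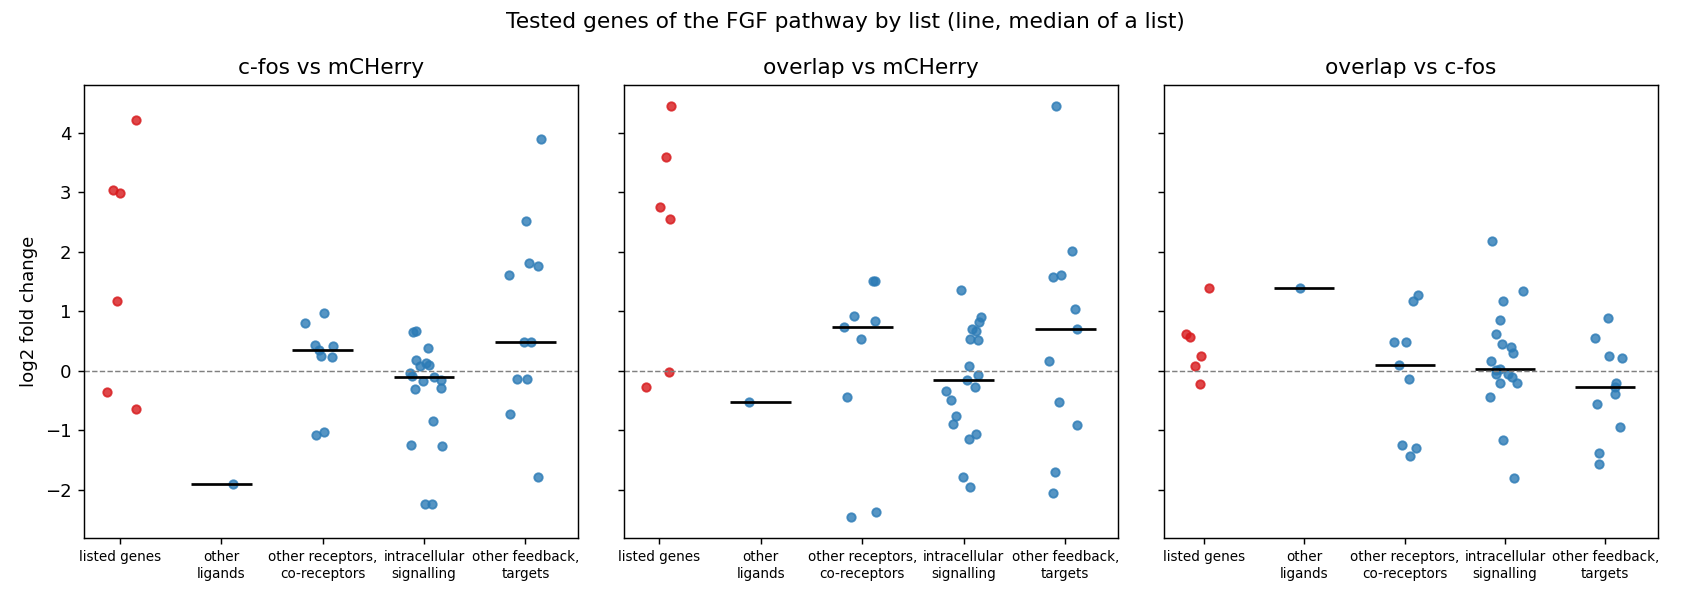
Log2 fold changes (vertical axis) of the tested genes of the FGF pathway by list, for c-fos against mCHerry, overlap against mCHerry and overlap against c-fos, with 1 point per gene and the median of each further list as a line. The 10 listed genes (6 tested, red) spread from -0.65 to 4.22 for c-fos against mCHerry, while the 19 signalling genes have medians of -0.11, -0.16 and 0.03.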

How the data were processed

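The authors deposited 1 table of whole-number counts per Ensembl gene and library. Per the labels' protocols, libraries were made by Smart-3SEQ, which reads RNA 3′ ends. The tools listed per the submitters' processing notes are featureCounts, UMI-tools, STAR and Trim Galore, and the build is mm9. The sources used here give no versions, no strand setting and no word on collapsing by molecular identifier. Symbols were matched to 54723 of 54838 identifiers. The reference annotation belongs to another build, so it gave names, overlaps and promoter sequences (RefSeq, read for 8 of 10 genes) only.

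The 9 libraries entered 1 edgeR 4.0.16 fit in R 4.3.3 (TMM on total counts, filterByExpr at 10 counts, the quasi-likelihood test, two-sided, Benjamini-Hochberg over 7959 genes, adjusted p under 0.05). The biological coefficient of variation was 0.857. Standard errors were taken as the fold change over the root of F. The fit was tested on simulated data. Alternatives were DESeq2 1.42.0, limma 3.58.1 (voom), other scalings and filters, pairs of groups, a replicate block and libraries left out. All 10 genes are named. Of each further list, the up to 4 tested genes of smallest p for any group difference are named, with Dusp6, Etv5, Frs2, Fgfrl1 and Fos. Members and lists were chosen with earlier results of these data known, and the 2 motifs shown in capitals after the sequences were seen.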

Additional observations from a re-analysis of the deposited data

How the results depend on the processing

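In edgeR, 0 of the FGF genes were called in every fit for c-fos against mCHerry, overlap against mCHerry and overlap against c-fos. For c-fos and overlap, as a mean, against mCHerry the count was 0 in the fit of all libraries, 1 (Fgf9) with no filter on low counts, and 0 to 1 when single libraries were left out. DESeq2 called 2 genes (Fgf9, Fgf18) for overlap against mCHerry, 2 (Fgf9, Flrt3) for both groups against mCHerry and 1 (Fgf9) for any group difference, where edgeR called 0. These fits called more genes in general. For overlap against mCHerry DESeq2 called 188 of all 7959 genes, and edgeR with the filter 2. With no filter edgeR called 344 of 26012 genes for overlap and 253 for c-fos against mCHerry. Of 436 fold changes under alternatives, 394 kept direction and call, 6 were newly called and 36 changed sign, the cause of which was not tested. With the scale on the 200 most abundant genes, which moved the median of all genes by 0.35, 0.69 and 0.35 in the 3 comparisons, Fgfr1 stood at 0.023 for c-fos against mCHerry, 0.52 for overlap against mCHerry and 0.27 for both groups, Fgfr2 at 0.89 for overlap and 0.33 for both groups, and Flrt3 at 0.10 for overlap against c-fos. DESeq2 size factors, which moved it by 0.01, 0.23 and 0.22, gave Fgfr2 0.074 for overlap against mCHerry, and DESeq2 0.02. Upper-quartile scaling (shifts of 0.12, -0.05 and -0.18) gave Fgfr1 -0.11 for overlap against c-fos. With limma-voom, Fgfr2 stood at 0.33 for c-fos, 0.88 for overlap and 0.61 for both groups against mCHerry, and for overlap against c-fos Fgfr1 at -0.17 and Spry2 at -0.47. Without mCHerry 3 and overlap 1 together, Fgfr1 stood at 0.023, 0.63 and 0.33 and Fgfr2 at 0.76, 1.88 and 1.32 for c-fos, overlap and both groups against mCHerry, and Spry2 at -0.91 for overlap against c-fos. With single libraries left out, Fgfr1 ran from -0.61 to 0.037, -0.73 to 0.24 and -0.57 to 0.076, and Fgfr2 from -1.66 to 0.74, -1.51 to 1.35 and -1.09 to 1.05, for c-fos, overlap and both groups against mCHerry. For overlap against c-fos the ranges were -0.46 to 0.69 for Fgf9, -0.35 to 0.60 for Fgfr1, -0.84 to 1.56 for Fgfr2 and -0.91 to 0.98 for Spry2. With the replicate number as a block, 0 FGF genes were called in any comparison, and Fgfr1 stood at -0.29 for overlap against c-fos. Deviations of same-numbered libraries correlated between -0.0284 and 0.0377, with 0 of 9 pairs over 0.1, so the numbers were not taken to pair the libraries. Own numbers correlated best in 8 of 18 cases. Single libraries left out of the summed counts of Fgf2, Fgfr3 and Spred1, and values of the further pathway genes without mCHerry 3 and overlap 1, were added after seeing the data. Fgf2, Fgf1, Fgfr3 and Spred1 were too low for the filter, and depth limits what can be said of Fgf1 and Spred1 above all.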

Other observations

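Further FGF genes had too few counts for a test and are given as counts, chosen after their values were seen. Fgf23, an endocrine ligand made mainly by bone, had 0, 7 and 11 counts in c-fos 1, 2 and 3 and 0 in all overlap and mCHerry libraries. Fgf10, a ligand of Fgfr2, had 0, 0 and 0 counts in overlap, 0, 3 and 10 in c-fos, and 2, 1 and 0 in mCHerry. Fgf15, the mouse counterpart of FGF19, had 8, 24 and 0 counts in overlap, 0, 3 and 5 in c-fos, and 4, 0 and 0 in mCHerry. Fgf22, a ligand known to organise synapses, had 0, 9 and 3 counts in overlap, 4, 0 and 4 in c-fos, and 8, 4 and 4 in mCHerry. Fgfr4, the receptor not described above, had 0, 0 and 0 counts in overlap, 3, 0 and 10 in c-fos, and 1, 0 and 0 in mCHerry. Spry1, a relative of Spry2, was counted in c-fos 3 alone, with 7 counts. Fgfrl1, a receptor without a kinase domain, had 1 count in overlap 1 and 1 in mCHerry 2. Other untested genes were counted mostly in mCHerry. Fgf12 had 0, 0 and 3 counts in overlap, 0, 3 and 5 in c-fos, and 9, 8 and 3 in mCHerry. Of the further lists, Cbl had 0, 0 and 2 counts in overlap, 1, 0 and 1 in c-fos, and 5, 3 and 12 in mCHerry. Myc had 2, 0 and 0 counts in overlap, 0, 0 and 1 in c-fos, and 6, 1 and 11 in mCHerry. No share over all genes is set beside these patterns, so they are a description.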
